A study of Caenorhabditis elegans with 12 samples.

Results

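The miRNAs cel-miR-83, cel-miR-235 and cel-miR-236 of the nematode Caenorhabditis elegans belong to families that vertebrates share, named after miR-29, miR-92 and miR-8. They are called miR-83, miR-235 and miR-236 here. They were chosen by name among the 114 C. elegans probes of a 2-colour miRNA array, because their log2 ratios lay above 0 on arrays of the alpha-synuclein strain. All 3 were among the 50 tested probes, which were those that gave any signal on 4 or more of 11 distinct arrays. miR-235 and miR-236 each had a signal on 4 arrays, 2 of them alpha-synuclein arrays. These 2 miRNAs thus entered the mutant tests only with the help of arrays of the strain that chose them. Since the alpha-synuclein ratios chose all 3 miRNAs, their values in that strain are given as a description with no test. The 2 mutants give the tests, which for miR-235 and miR-236 are not free of that choice.

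The 4 groups were synchronized worms of larval stage 4, kept on OP50 bacteria. The first carries human alpha-synuclein A53T as a transgene, a variant linked to familial Parkinson's disease. The sources used here do not give the promoter of the transgene. The second is CB1111, with the e1111 allele of cat-1, which encodes the vesicular monoamine transporter. The third is VC1024, with the gk448 allele of pdr-1, the worm gene for the ubiquitin ligase parkin. Each was compared on the same array with N2, the wild type, which carried the same dye on every array, so a dye bias of a probe and a difference between strain and N2 cannot be told apart. There were 4 worm populations per strain, but replicates 3 and 4 of cat-1 came with identical scanner values and count as 1 array. The arrays are therefore 4 of the alpha-synuclein strain, 3 of cat-1 and 4 of pdr-1. RNA came from whole worms, so fewer cells that make a miRNA and less of it per cell cannot be told apart. All ratios are strain over N2, the likely direction, since the labels name N2 as channel 1.

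A miRNA is cut from a hairpin transcript and guides an Argonaute protein to messenger RNAs, mainly through pairing of its seed near the 5′ end, which lowers their translation and stability. In mammals, the miR-29 family is known for repressing collagens and other matrix genes, the miR-92 family for its place in a growth-promoting miRNA cluster, and the relatives of miR-8 for repressing the ZEB transcription factors in epithelia. In worms, mir-83 acts with mir-34 in the migration of the gonad's distal tip cells, and mir-235 keeps progenitor cells of starved young larvae quiescent. A worm role of miR-236 is not given here. In the WBcel235 gene table the mir-83 gene lies on chromosome IV and overlaps the noncoding RNA gene C06A6.9, mir-235 lies on chromosome I, and mir-236 lies on chromosome II between the protein-coding genes znf-598 and cin-4. None of the 3 has another miRNA gene within 10 kb.

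The arrays differed widely in how much they measured. Between 14 and 55 C. elegans probes gave a signal per array, with the fewest on alpha-synuclein replicate 4 (14) and pdr-1 replicate 1 (15), and none of the 3 miRNAs had a signal on either, nor on cat-1 replicate 3. A signal means an intensity above 0 in a spot. Of 1059 blank spots, 15 to 18 were above 0 on each cat-1 array, 3 on pdr-1 replicate 2 and 0 elsewhere. Larval timing miRNAs gave a signal for 5 of 5 members, with 5.95% to 25.9% of the summed signal in strain channels and 8.47% to 26.5% in N2 channels. The embryonic miR-35 family gave a signal for 5 of 8 members, at 0% to 8.51% in strain channels and 0% to 5.25% in N2 channels, and the muscle miRNA miR-1 had a signal on all 11 arrays. Of the neuronal miRNAs, miR-124 had a signal on 5 arrays and lsy-6 on 0, and their summed share reached 2.99% in strain channels and 2.00% in N2 channels. The part of these differences in the results was not tested.

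miR-83 was the most often detected of the 3, and miR-235 the least. miR-83 had a signal in the strain channel of 3 of 4 alpha-synuclein arrays, 2 of 3 cat-1 arrays and 2 of 4 pdr-1 arrays, and in the N2 channel of the same arrays. That made 14 of 22 channels. miR-236 was detected in 2 alpha-synuclein, 1 cat-1 and 1 pdr-1 array, in both channels, or 8 of 22. miR-235 was detected in the strain channel of 2 arrays of alpha-synuclein and 2 of pdr-1, and in N2 on 1 of the first and both of the second, or 7 of 22. It gave no signal on the 3 cat-1 arrays and has no ratio there.

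Each probe has 3 spots, 1 in each of 3 sections of the array, and most arrays gave a signal in only some of them. Of the 99 spots of the 3 miRNAs on the 11 arrays, 31 had a strain signal and 27 an N2 signal, and no spot had an N2 signal alone. Over all C. elegans spots, an N2 signal alone was seen on cat-1 replicate 3 only (1 spot). Spots with a strain signal alone lay on alpha-synuclein replicate 3 (1 each for miR-83 and miR-235) and pdr-1 replicate 3 (1 each for miR-235 and miR-236). Over all C. elegans spots, alpha-synuclein replicate 3 held 45 with a strain signal alone and 83 with both. On pdr-1 replicate 3 these counts were 4 and 129. When at least 2 spots were required, miR-83 had 11 detected channels, miR-236 had 6 and miR-235 had 1. On alpha-synuclein replicate 1, section 1 held 47 C. elegans spots with a signal, against 8 and 20 in the other sections, and the only spots of miR-235 and miR-236 with a signal lay in section 1.

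**Figure D1:**
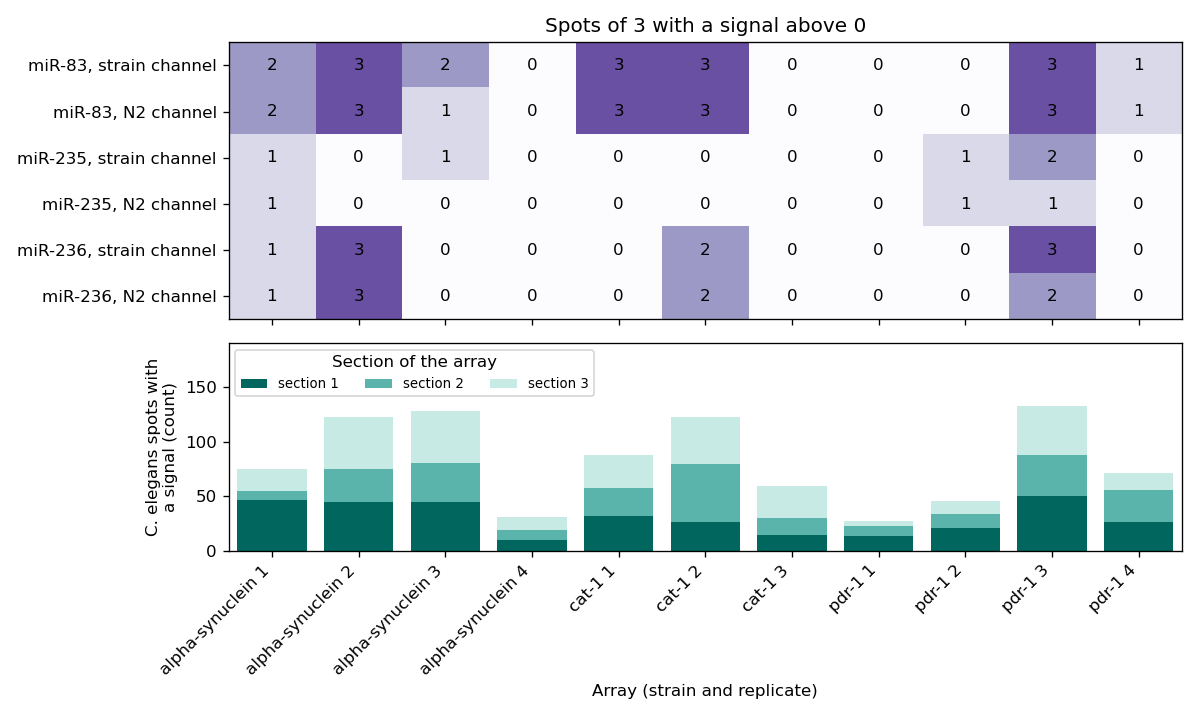
The top panel gives, for each of the 11 distinct arrays (columns) and each channel of the 3 miRNAs (lines), how many of 3 spots had a signal above 0. The bottom panel stacks the C. elegans spots with a signal in each section of the array, and the 3 miRNAs had no signal on alpha-synuclein replicate 4, cat-1 replicate 3 and pdr-1 replicate 1.

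On alpha-synuclein arrays, miR-83 had mean spot signals of 795904.5, 2754166 and 1751435 intensity units in the strain channel of replicates 1, 2 and 3, against 359512, 627353 and 65235 in N2. The strain signal was above the N2 signal on each of these arrays, by a log2 ratio before normalization of 1.15, 2.04 and 4.98. Ratios were taken per spot and need a signal in both channels, so that of replicate 3 comes from 1 spot (2053797 in the strain, 65235 in N2). The median C. elegans probe had a log2 ratio of 0.00, 1.99 and 4.55 on the same arrays, so most of the last 2 values was shared by other probes. After loess normalization within the array, miR-83 had log2 ratios of 1.83, 0.14 and 0.58, a mean of 0.85 ± 0.88 (SD, n = 3). Replicate 1 stood above the other two, and without it the mean of miR-83 was 0.36. On replicate 2 the 3 spots had normalized log2 ratios of -0.69, 0.14 and 0.97, a range of 1.66, against a range of 0.59 before normalization.

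miR-235 gave 1 ratio in the alpha-synuclein strain. Its spot on replicate 1 had signals of 313957 in the strain and 97022 in N2, a normalized log2 ratio of 1.74. On replicate 3 it had 1150231 in the strain and no N2 signal, and no fold is given there. One array cannot show a spread.

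miR-236 had strain signals of 3027484 and 2918713 on alpha-synuclein replicates 1 and 2, against 857382 and 423593 in N2. Its normalized log2 ratios were 2.01 and 0.92, a mean of 1.46 ± 0.77 (SD, n = 2), and without replicate 1 the value was 0.92. It had 1 spot on replicate 1 and 3 on replicate 2, and the 3 spots of replicate 2 lay between 0.86 and 1.01. Of the 50 tested probes with an alpha-synuclein ratio, 13 (26.0%) were above 0 on every array that measured them, and the 3 miRNAs were among them by their choice. Among the conserved miRNAs, miR-79 lay just above 0 in this strain (mean log2 ratio 0.03, 2 arrays) and miR-55 just below it (-0.03, 3 arrays).

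**Figure D2:**
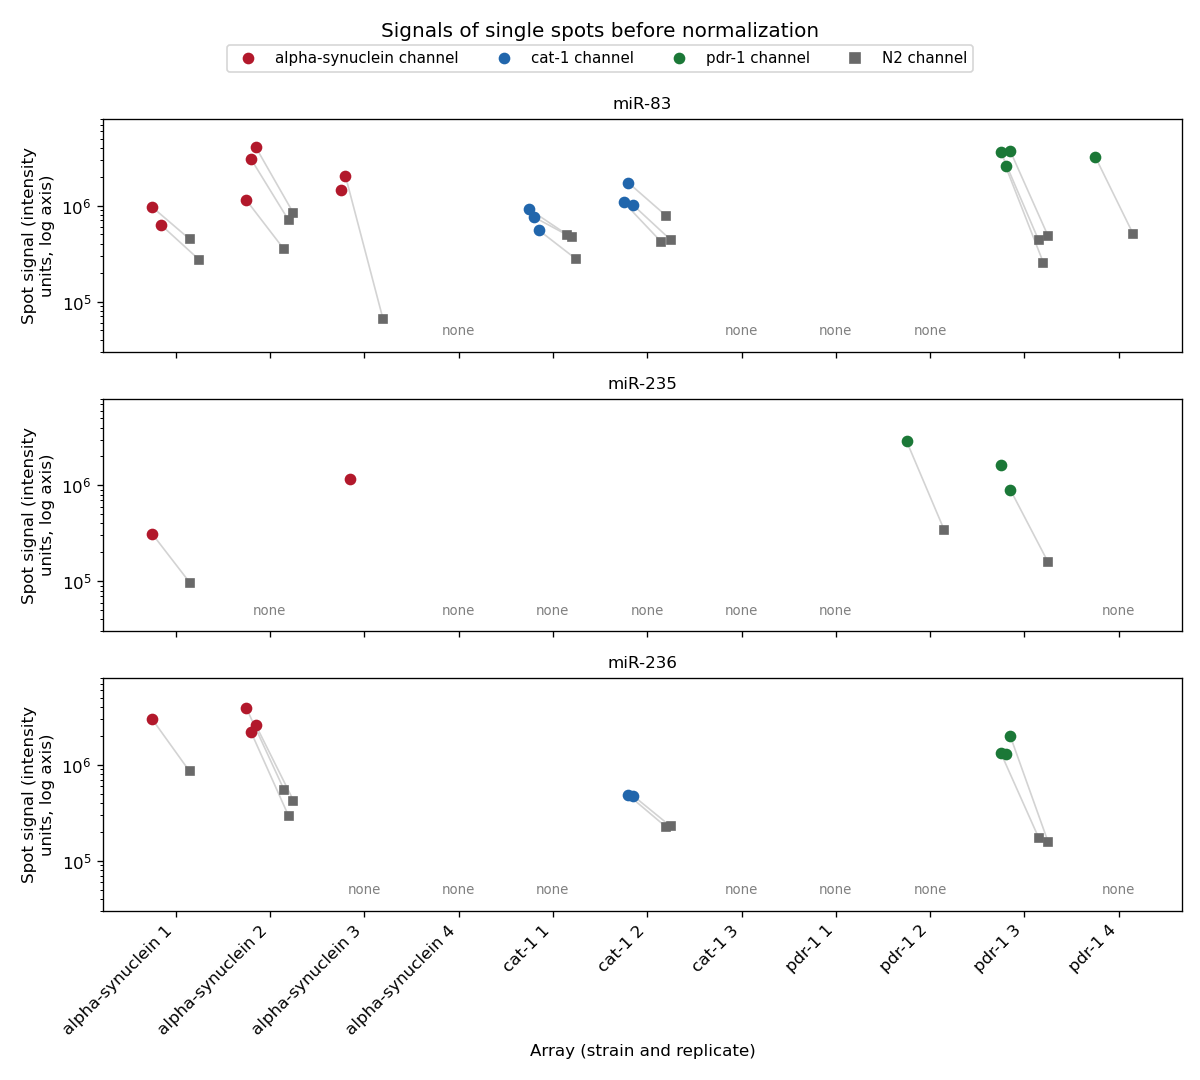
Spot signals in intensity units on a log axis for each distinct array, with the strain channel as coloured circles, N2 as grey squares and a line joining the channels of 1 spot. Every joined pair has its strain signal above its N2 signal before normalization, and arrays with no signal are marked none.

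In the cat-1 mutant, neither measured miRNA differed from N2 beyond the spread pooled over all tested probes. miR-83 had mean signals of 742954 and 1277189 in the mutant on replicates 1 and 2, against 413174 and 546644 in N2. Its log2 ratios were 0.09 and 0.58, both above 0. The mean was 0.34 ± 0.45 (SE, 95% interval -0.56 to 1.23, adjusted p = 0.976 by limma with Benjamini-Hochberg adjustment). miR-236 was measured on replicate 2 alone, with signals of 483534.5 in the mutant and 227864.5 in N2, a log2 ratio of 0.16 (95% interval -1.11 to 1.43, adjusted p = 0.976 by limma). Both miRNAs measured were above 0 on every array that measured them, as were 17 of 48 probes in this strain (35.4%). A probe measured on few arrays meets this more easily, and miR-236 had 1 array and miR-83 had 2. miR-236 passed the filter of 4 arrays only with its alpha-synuclein arrays. By limma, 0 of 48 probes passed an adjusted p of 0.05 (0.0%), and 4 had an unadjusted p under 0.05. The cat-1 signals lay in the range of this strain's blank spots: above the highest blank of the same channel, miR-83 was detected in 1 of 6 cat-1 channels and miR-236 in 0. Over all arrays that rule left miR-83 with 11 channels, miR-235 with 6 and miR-236 with 6.

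In the pdr-1 mutant, miR-83 had mean signals of 3290082 and 3232613 on replicates 3 and 4, against 390655 and 510681 in N2. Its log2 ratios were 0.81 and 0.53, above 0 on both arrays, with a mean of 0.67 ± 0.45 (SE, 95% interval -0.23 to 1.57, adjusted p = 0.902 by limma). The interval includes 0. Replicate 4 correlated at -0.56 with replicate 1 over 14 probes, at 0.05 with replicate 2 over 16 and at 0.42 with replicate 3 over 31, and replicate 1 at 0.10 with replicate 2 and 0.04 with replicate 3. The negative pair leaves the direction of replicates 1 and 4 unsettled. With the sign of replicate 4 turned, the mean of miR-83 was 0.14 (adjusted p = 0.946 by limma), and turning replicate 1, where the 3 miRNAs have no ratio, left it at 0.67.

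miR-235 went opposite ways on its 2 pdr-1 arrays. On replicate 2 its spot had 2886438 in the mutant and 340595 in N2, a log2 ratio of 0.57. On replicate 3 it had 1271362 in the mutant and 158377 in N2, where only the spot with both signals gave a ratio, of -0.23. Its mean was 0.17 ± 0.45 (SE, 95% interval -0.73 to 1.06, adjusted p = 0.902 by limma). Like miR-236, it passed the filter of 4 arrays only with its alpha-synuclein arrays. Without a filter on dim probes, the adjusted p of miR-235 was 0.938 by limma. miR-236 was measured on replicate 3 alone, with 1542494 in the mutant and 166785.5 in N2, and had a log2 ratio of 0.58 (95% interval -0.69 to 1.85, adjusted p = 0.902 by limma).

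Of the 3 miRNAs in pdr-1, miR-83 and miR-236 were above 0 on every array that measured them, against 17 of 48 probes in the strain (35.4%). A probe measured on few arrays meets this more easily, and miR-236 had 1 array and miR-83 had 2. With replicate 4 turned, miR-236 alone of the 3 was above 0 throughout, against 17 of 48 probes (35.4%), and with replicate 1 turned miR-83 and miR-236 were, against 19 of 48 (39.6%). No probe passed the threshold: 0 of 48 by limma (0.0%), with 2 at an unadjusted p under 0.05. The test took 1 SD of 0.64 for all strains. Alpha-synuclein arrays had a residual SD of 0.81, cat-1 arrays 0.38 and pdr-1 arrays 0.47. The intervals are thus wider for the mutants than their own spread would give.

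Between the mutants, the log2 ratio of miR-83 differed by -0.33 ± 0.64 (SE, cat-1 minus pdr-1, 95% interval -1.60 to 0.93, adjusted p = 0.989 by limma). That of miR-236 was -0.42 ± 0.91 (95% interval -2.21 to 1.37, adjusted p = 0.989 by limma). Of 46 probes, 0 passed (0.0%), and 0 had an unadjusted p under 0.05. miR-236 was among the 46 only with the help of its alpha-synuclein arrays. As a description, the alpha-synuclein mean exceeded the cat-1 and pdr-1 means by 0.51 and 0.18 for miR-83, by 1.30 and 0.89 for miR-236, and by 1.57 over pdr-1 for miR-235. With pdr-1 replicate 4 turned, the excess of miR-83 over pdr-1 was 0.71.

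**Figure D3:**
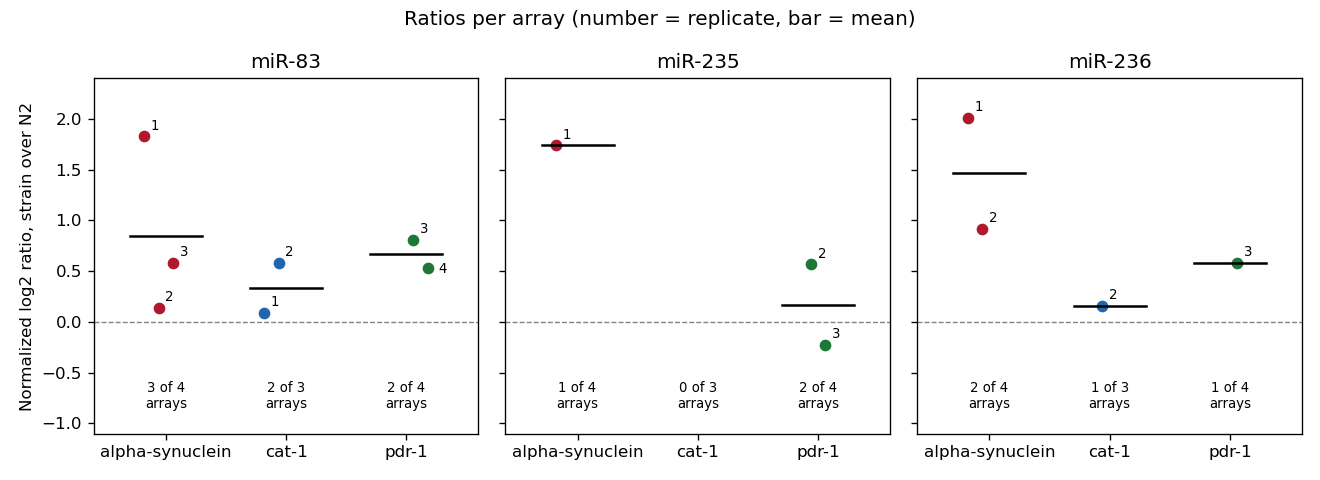
Normalized log2 ratio of strain over N2 on each array, 1 point per array with its replicate number and a bar at the mean, and the number of arrays with a ratio below. The alpha-synuclein ratios lie above 0 by the choice of the miRNAs. Among the mutant ratios, miR-235 on pdr-1 replicate 3 lay below 0, at -0.23. With pdr-1 replicate 4 turned, miR-83 on that array lay below 0 as well.

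The order of these means depended on how each array was scaled. Relative to the array's median probe and before loess, miR-83 had log2 ratios of 1.15, 0.05 and 0.43 in alpha-synuclein, -0.03 and 0.45 in cat-1 and 0.61 and 0.97 in pdr-1. In this scaling the alpha-synuclein and pdr-1 values of miR-83 overlap, as they do after loess. Its means were 0.54 in alpha-synuclein and 0.79 in pdr-1, against 0.85 and 0.67 after loess, with pdr-1 replicate 4 not turned. With dye control spots as the centre, the cat-1 means of miR-83 and miR-236 were -0.17 and -0.084, while the median of all tested probes was -0.28. Relative to that median both lay above 0, at 0.11 and 0.19. With no normalization the median of all tested probes was 1.84 in alpha-synuclein, 0.78 in cat-1 and 2.08 in pdr-1, so values under this setting hold a shift common to most probes. On alpha-synuclein replicate 1, its only array with a ratio in that strain, miR-235 lay 1.69 above the array's own median before loess.

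**Figure D4:**
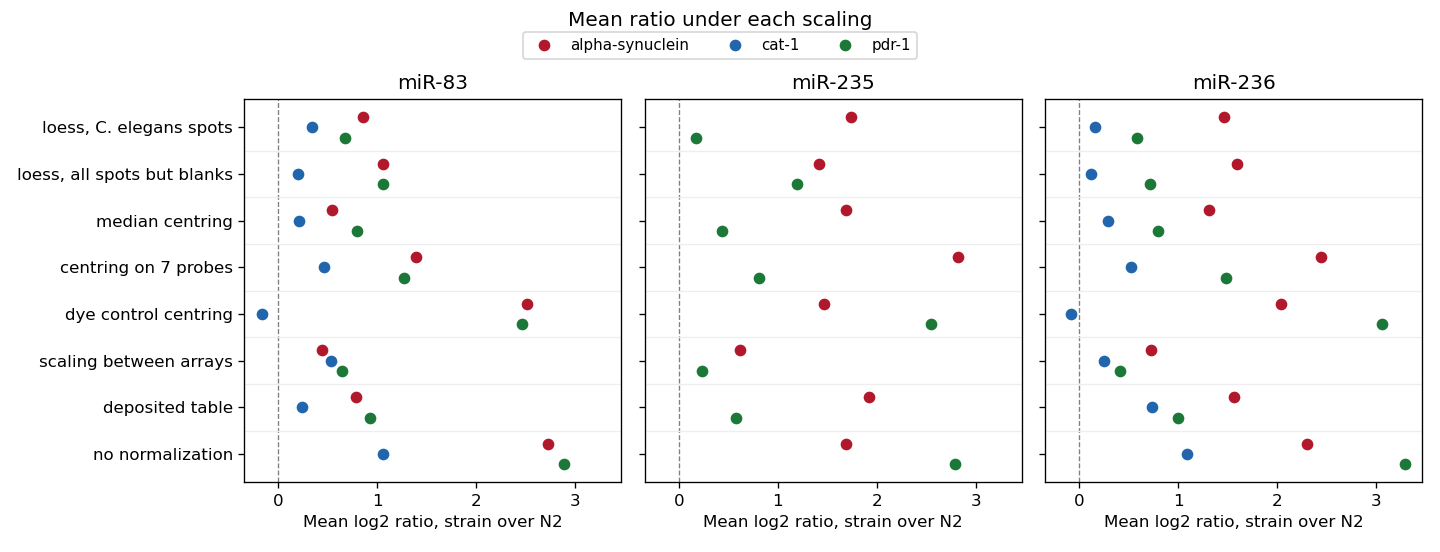
Mean log2 ratio of strain over N2 for each miRNA (panels) and strain (colours) under 8 ways of scaling the arrays, on a log2 axis. The cat-1 means of miR-83 and miR-236 fall below 0 with dye control centring, and without normalization miR-83 reaches 2.72 in alpha-synuclein and 2.89 in pdr-1, where miR-235 reaches 2.79 and miR-236 3.29.

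To set channels side by side, each signal was scaled on the log2 axis to the mean of the 7 probes measured on every array (miR-1, miR-48, miR-63, miR-64, miR-65, miR-80 and miR-82). These levels compare 1 probe across channels only. With ratios centred on these 7 probes, the median tested probe lay above N2, at 0.92 in alpha-synuclein, 0.39 in cat-1 and 0.39 in pdr-1. Levels above N2 on this scale thus hold a shift shared with the median probe. miR-83 had a scaled level of 0.25 ± 0.45 in alpha-synuclein (SD, n = 3), -0.02 ± 0.56 in cat-1 (n = 2), 0.98 ± 0.15 in pdr-1 (n = 2) and -0.67 ± 0.60 in N2 (n = 7). In N2 it lay at -1.98 at its lowest, -0.55 at its median and -0.17 at its highest. From high to low its order was pdr-1, alpha-synuclein, cat-1 and N2. Its values were 0.88 and 1.08 in pdr-1, -0.17 to 0.72 in alpha-synuclein, and -0.41 and 0.38 in cat-1. Alpha-synuclein and cat-1 overlapped each other, and both overlapped N2. How many tested probes keep their groups apart on this scale was not counted. The place of pdr-1 rests on the direction of replicate 4: with its channels exchanged, miR-83 was at 0.35 ± 0.74 in pdr-1 (n = 2, -0.17 and 0.88), which overlapped alpha-synuclein, and at -0.49 ± 0.89 in N2 (n = 7), with 1.08 as the highest.

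The lowest N2 level of miR-83, -1.98, was the N2 channel of alpha-synuclein replicate 1, the array with its highest ratio. On that array the strain channel of miR-83, at 0.21, lay between the alpha-synuclein values of replicates 2 and 3 (0.72 and -0.17). miR-235 had a scaled level of -0.96 ± 0.25 in alpha-synuclein (SD, n = 2), -0.13 ± 0.52 in pdr-1 (n = 2) and -2.10 ± 1.62 in N2 (n = 3), with the lowest N2 value again on alpha-synuclein replicate 1 (-3.87). Its values were 0.24 and -0.49 in pdr-1, -0.78 and -1.13 in alpha-synuclein, and -3.87 to -0.68 in N2. miR-236 had levels of 1.47 ± 0.94 in alpha-synuclein (SD, n = 2), -1.02 in cat-1, -0.22 in pdr-1 and -1.27 ± 0.44 in N2 (n = 4). Its N2 level on alpha-synuclein replicate 1, -0.72, was the highest of the 4. The alpha-synuclein values of miR-236 were 2.14 on replicate 1 and 0.81 on replicate 2, the arrays that chose it. Its lowest N2 value was -1.69, and the single cat-1 value lay within the N2 range. How many tested probes keep their groups apart in this way was not counted. As a share of the summed C. elegans signal, miR-83 made up 1.31% to 2.34% in alpha-synuclein, 2.10% to 2.31% in cat-1, 2.76% to 4.58% in pdr-1 and 0.823% to 2.41% in N2. With the channels of pdr-1 replicate 4 exchanged, the share was 2.37% to 2.76% in pdr-1 and 0.823% to 4.58% in N2, so the highest group on this scale also depends on that array.

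The miRNAs whose scaled signal was most like each of the 3, over 22 channels with no signal set to 0, are given with Spearman's rho. Pairs of channels share an array and the number of probes it measured, and no test is given. For miR-83 they were miR-55 (0.865), miR-74 (0.835) and miR-228 (0.829). For miR-235 they were lin-4 (0.698), which times early larval fates, miR-34 (0.679) and miR-77 (0.632). For miR-236 they were miR-46 (0.825), the neuronal miR-124 (0.814) and miR-47 (0.801). Pearson's r of the log2 ratios could be given for miR-83 with miR-55 (0.686 over 7 arrays) and with miR-74 (0.512 over 6), and with pdr-1 replicate 4 turned these were 0.743 and 0.678.

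Among the 29 conserved miRNAs on the array, 23 had a cat-1 ratio, 13 above 0 and 10 below, with a median of 0.05, against 27 above and 21 below and a median of 0.08 over all 48. In pdr-1, 25 had a ratio, 15 above and 10 below, with a median of 0.14, against 24 and 24 and a median of -0.00 over all 48. Without the 3 miRNAs the medians were 0.04 in cat-1 and 0.06 in pdr-1. None of the list was called. Among those of the list with ratios on 2 arrays or more, and leaving out the 3 miRNAs, the largest ratios in each direction were as follows. In cat-1 they were miR-241 (1.05, above 0 on 1 of 2 arrays), a relative of let-7, and miR-72 (0.92, 2 of 2) above. Below were miR-51 (-0.55, above 0 on 0 of 2) and miR-53 (-0.41, above 0 on 1 of 3). In pdr-1 they were miR-241 (1.15, above 0 on 2 of 2 arrays) and lin-4 (0.55, 2 of 2) above. Below were miR-48 (-0.60, above 0 on 0 of 4), another relative of let-7, and miR-56 (-0.30, above 0 on 1 of 2). With replicate 4 of pdr-1 turned, miR-241 was at -0.57, miR-48 at -0.36, miR-56 at -0.38 and lin-4 at 0.55, and the list's median was 0.11 against -0.01 over all 48. With replicate 1 turned, the list's median was 0.14 against 0.01.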

How the data were processed

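Small RNA of whole worms was labelled and hybridised to 2-colour NCode arrays, per the labels' protocols. The deposited scanner files give an intensity and a flag per channel and spot, per the file headers, with no background column, and a signal above 0 was taken as above background. Which scanner letter is which dye is not stated, and B was taken as the strain. Log2 ratios are what the authors' deposited table of values holds. Of its 12 columns, 10 matched the scanner files' log2 ratio of B over A up to a shift (r = 1.0). The alpha-synuclein replicate 2 column correlated at 0.721, and the cat-1 replicate 4 column matched no scanner file, so its scale, centring and direction stay unknown. In replicate order its column medians were 0.07, 0.27, -0.06 and 0.40 (alpha-synuclein), -0.03, 0.08, 0.03 and 0.13 (cat-1) and 0.20, 0.05, 0.19 and -0.03 (pdr-1). It served as an alternative.

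S-flagged spots were dropped. Log2 ratios were normalized by loess on C. elegans spots within the array (span 0.3, 4 iterations) and averaged per probe. A probe needed a signal in at least 1 channel on 4 arrays. R 4.3.3 and limma 3.58.1 fitted 1 mean per strain and 1 spread, two-sided, with Benjamini-Hochberg adjustment at 0.05. N2 was only ever the partner channel. Every tested probe received the same SD of 0.64, pooled over the tested probes and all arrays. The p-values and intervals thus rest on this pooled spread and the number of arrays, not on a probe's own spread. For a probe measured on 1 array, the interval is borrowed from the other probes. No dye swap was made. The model fit alone was run on simulated log2 ratios for the pdr-1 comparison, and the steps before it were not. The miRNAs, lists and rules for names (the 3 miRNAs, the 3 most like each, and the 2 conserved miRNAs furthest from 0 each way per mutant) were chosen with earlier results of these data known. Replicate numbers did not pair the arrays.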

Additional observations from a re-analysis of the deposited data

Results flagged for a closer look

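The scaled N2 level of miR-83 on the alpha-synuclein replicate 1 array, -1.98, lay far below the other 6 N2 channels that measured it, whose lowest was -0.65. Chance sets such a value apart in about 5% of groups, and 2 groups were looked at. As a share of the summed signal this channel was at 0.823%, with 1.22% as the next lowest in N2. With the channels of pdr-1 replicate 4 exchanged, the highest N2 level was 1.08 in place of -0.17, so the gap was a smaller part of the range. miR-236 had a log2 ratio of 1.10 in the cat-1 replicate 4 column of the authors' deposited table, which no scanner file matches. In the same table its ratio on cat-1 replicate 2 was 0.36. The comparisons made from the scanner files do not use the unmatched column. The alternative that takes the deposited table does use it, with a cat-1 log2 ratio of miR-236 of 0.73, against 0.36 without that column.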

How the results depend on the processing

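No alternative put any of the 3 miRNAs past the threshold in the cat-1, pdr-1 or cat-1 minus pdr-1 comparison by limma. Over the settings other than leaving out an array, the adjusted p by limma was 0.412 to 0.999 in cat-1, 0.0900 to 0.995 in pdr-1 and 0.377 to 0.991 between them. Dye control centring turned miR-83 to -0.17 and miR-236 to -0.084 in cat-1. Turning the sign of pdr-1 replicate 4 brought the cat-1 minus pdr-1 difference of miR-83 to 0.20. Levels, shares and list counts with a pdr-1 array turned were added after seeing the data. In cat-1, the number of probes called was 1 with centring on the 7 probes measured on every array (chosen after seeing the data), 1 with scale normalization between arrays, 4 with the strain fitted alone and 4 with the repeated file counted as 2 arrays. None of these calls was one of the 3 miRNAs, and the cause was not tested. In alpha-synuclein, miR-83 was 2.72 without normalization and 2.51 with dye control centring, miR-235 was 2.82 with 7-probe centring and 0.62 with scale normalization, and miR-236 was 2.30 without normalization and 2.44 with 7-probe centring. In pdr-1, without normalization, miR-83 was 2.89, miR-235 2.79 and miR-236 3.29. Detection of miR-235 fell to 1 channel when 2 spots were required.

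Leaving out 1 array at a time gave 0.36 to 1.21 for miR-83, 1.74 for miR-235 and 0.92 to 2.01 for miR-236 in alpha-synuclein, 0.09 to 0.58 for miR-83 and 0.16 for miR-236 in cat-1, and 0.53 to 0.81 for miR-83, -0.23 to 0.57 for miR-235 and 0.58 for miR-236 in pdr-1. The value of -0.23 came without replicate 2. The cat-1 minus pdr-1 differences were -0.58 to -0.09 for miR-83 and -0.42 for miR-236, and 0 probes were called in any of these. The replicate numbers did not pair the arrays: 10 pairs of arrays with the same number correlated at a median of -0.11, against 0.09 for 30 pairs with different numbers, and 0 of 11 arrays correlated best with its own number. With the replicate block, miR-83 was 0.37 in cat-1 and 0.64 in pdr-1, and miR-236 was 0.03 in cat-1, against 0.16 without it, and 0.58 in pdr-1. miR-235 was 0.17 in pdr-1, and 0 probes were called. With a signal required on 8 arrays, none of the 3 miRNAs was tested. Alternatives for background, slide and scan were not run, since the columns they need are not in the scanner files used here. Few spots per array limit every value.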
